A study of Mus musculus with 16 samples.

Results

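The genes described here are 10 immediate early transcription factors, chosen by their symbols: Fos, Fosb, Jun and Junb, Egr1, Egr2, Egr3 and Egr4, Nr4a1, and Npas4. They are 10 of the 24972 genes listed for every library, and all 10 passed the filter on low values in each comparison. The libraries are bulk RNA-seq of dorsal hippocampus that was cut by hand into CA1, CA3 and dentate gyrus (DG), with the tissue of a subregion pooled within each animal. All animals were adult ArcCreERT2::eYFPflx mice aged 3 to 4 months on a C57BL/6 background, in which a tamoxifen-inducible Cre is expressed from the Arc gene and a floxed eYFP reporter is present, in trained and untrained mice alike. The 3 trained mice had learned to avoid a shock zone on a rotating arena (active place avoidance), and the 3 untrained mice were placed on the same arena with the shock off. Both groups then received a retention test without shock, and tissue was taken 60 min after it. This gave 3 trained and 3 untrained CA1 libraries, 3 trained and 2 untrained CA3 libraries, and 3 trained and 2 untrained DG libraries, 16 in all. The untrained mice therefore also ran on the arena shortly before the tissue was taken, and no home cage group was analysed here.

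Immediate early genes are transcribed within minutes of strong synaptic input, without new protein synthesis, when calcium and the MAP kinase pathway activate factors already bound at their promoters, such as CREB, SRF and MEF2. The transcription factors among them then act on later genes. Fos and Fosb proteins pair with Jun and Junb to form the AP-1 factor, the Egr proteins are zinc finger factors that bind GC-rich sites, Nr4a1 is an orphan nuclear receptor, and Npas4 is a neuronal factor induced by calcium entry that pairs with Arnt proteins. In the hippocampus Fos, Egr1 and the effector gene Arc are widely used to mark neurons that were recently active.

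The promoters of the members on which the comparisons turn are shown first, because the sites in them are where activity-dependent factors can bind. The sequences are from RefSeq on GRCm38.p6, and 8 of the 10 members had a window that was used (Egr1 and Egr3 had none). Each run below holds the 150 bases before the start site, 5′ to 3′ on the strand of the gene, with the CRE core (TGACG, or CGTCA on the other strand), the TATA motif (TATAAA), the Egr motif (GCGNGGGCG) and the CArG box in capitals. Fos, Egr2 and Egr4 were lower in trained CA1, Nr4a1 was lower there without passing the test, and Jun was the member with a positive fold change there, which did not pass the test either.
Fos (chr12:85473740-85473889, plus strand): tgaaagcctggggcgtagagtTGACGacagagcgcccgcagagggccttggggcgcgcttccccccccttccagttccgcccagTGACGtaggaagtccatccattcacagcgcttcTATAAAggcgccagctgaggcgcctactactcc
Egr2 (chr10:67537719-67537868, plus strand): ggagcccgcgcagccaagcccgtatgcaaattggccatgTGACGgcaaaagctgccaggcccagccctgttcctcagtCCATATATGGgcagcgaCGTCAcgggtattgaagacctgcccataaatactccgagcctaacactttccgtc
Egr4 (chr6:85513590-85513739, minus strand): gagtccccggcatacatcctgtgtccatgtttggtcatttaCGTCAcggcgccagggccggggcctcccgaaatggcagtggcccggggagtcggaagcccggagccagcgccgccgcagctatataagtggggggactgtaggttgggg
Nr4a1 (chr15:101266696-101266845, plus strand): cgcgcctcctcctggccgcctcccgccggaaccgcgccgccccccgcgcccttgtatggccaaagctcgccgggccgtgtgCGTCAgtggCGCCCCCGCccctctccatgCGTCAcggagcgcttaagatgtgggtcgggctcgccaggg
Jun (chr4:95052223-95052372, minus strand): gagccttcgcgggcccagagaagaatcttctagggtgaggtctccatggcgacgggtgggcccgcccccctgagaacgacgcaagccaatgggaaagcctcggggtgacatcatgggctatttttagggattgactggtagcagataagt
The Nr4a1 window lies before an internal start, 12577 bases downstream of the start of its principal GENCODE transcript, and the start used for Npas4, whose window was searched but is not shown, is 345 bases downstream of its own, so that its sites lie within that transcript.

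Searched over 250 bases before the start and on both strands, the CRE core was present in 7 of the 8 windows, against 17.8% of 32851 promoter windows of the same length. Nr4a1 held 4 of these sites, Fos, Egr2, Egr4 and Npas4 held 2 each, Fosb and Junb held 1 each, and these letters were not in the Jun window. The full CRE palindrome (TGACGTCA), of which the core is a part, and the AP-1 motif (TGANTCA) were in none of the 8, against 1.55% and 6.75% of all windows. The Egr motif was in the windows of Fosb and Nr4a1 (4.7% of all windows), the TATA motif in that of Fos (12.4%) and the CArG box, the site of SRF, in that of Egr2 (1.47%). A match describes the letters only and is not evidence of binding. The lack of a match does not exclude a variant site, since only these patterns were searched. The Jun window, for example, holds TGACATCA, which differs from the full CRE palindrome by a single letter.

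Before the members are described, the labels of the libraries were checked against marker genes, and they held only in part. The summed value of 6 dentate granule markers (Prox1, C1ql2, Dsp, Glis3, Calb1 and Lct), a normalized estimated count as for all values here, was 8098 to 9723 in the CA1-labelled libraries and 7049 to 11940 in those labelled CA3, against 8502 to 10600 in those labelled DG. None of these 6 genes differed between labelled subregions (limma, adjusted p-value under 0.05), so dentate granule RNA did not mark the DG libraries. The summed CA1 pyramidal markers (Wfs1, Fibcd1 and Pou3f1 among them) were 3590 to 5709 in untrained CA1 but 1898 to 2352 in trained CA1, a range that overlapped the 1598 to 2384 of the DG-labelled libraries but lay above the 1107 to 1852 of the CA3-labelled ones. Of these 6 markers 5 were higher in CA1 than in CA3 by limma, and 1 was higher in CA1 than in DG. The 6 CA3 pyramidal markers were 1555 to 1607 in untrained CA1 and 2166 to 2251 in trained CA1, against 1923 to 2876 in the libraries labelled CA3 and 2190 to 2470 in those labelled DG. Of these 6, 2 were lower in CA1 than in CA3, 3 were lower in CA1 than in DG, and none differed between CA3 and DG by limma. In what follows CA1, CA3 and DG therefore mean the libraries so labelled, and in such bulk tissue fewer cells of a type and less RNA per cell cannot be told apart. The plot of summed markers shows these values.

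**Figure D1:**
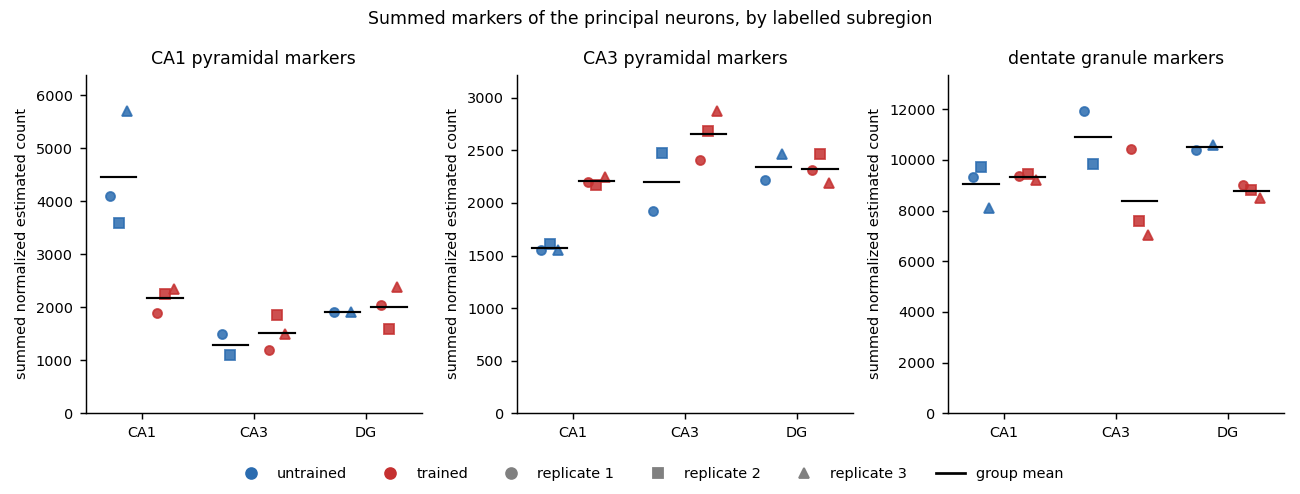
Summed normalized estimated counts (vertical axes) of 6 CA1 pyramidal, 6 CA3 pyramidal and 6 dentate granule markers in each library, by labelled subregion (horizontal axes). Points are libraries, colours training, marker shapes replicates and black lines group means; the untrained CA1 libraries lie above all others in CA1 markers (3590 to 5709), while the dentate markers overlap between all 3 labelled subregions.

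Other properties also followed the groups. Xist, transcribed from the inactive X chromosome, was 7601 to 19590 in the 9 trained libraries and 25.49 to 52.41 in 6 of the 7 untrained ones. The CA3 library of untrained mouse 1 had an Xist value of 10590 with 201.4 of the Y-linked Ddx3y, unlike the CA1 and DG libraries of the same mouse, and the DG library of trained mouse 3 had 7601 of Xist with 255.2 of Ddx3y. These values go against the study's methods, which place males and females in both groups. Because Xist and Ddx3y followed training in nearly all libraries, training and these transcripts cannot be told apart. Genes listed at 0 numbered 3124 to 9759 per library, with many in 7 libraries (the 3 of trained CA1, 2 of trained CA3 and the 2 of untrained DG). In CA1 this split coincided with training and no value within it can be had.

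On a scale of value per kilobase of the principal GENCODE transcript, the members fell in an order from Jun, at a median of 259 over the 16 libraries, through Egr3 (240), Egr1 (153), Nr4a1 (136) and Junb (101), to Fos (54.5), Npas4 (30.4), Fosb (24.8), Egr4 (22.4) and Egr2 (16.1). The ranges over libraries overlapped in all 9 neighbouring pairs of this order. The order of these medians did not hold in every group: in untrained CA1, Egr1 was 252.9 to 382.8 per kilobase, against 205.6 to 238.5 for Jun, and Egr2 (21.78 to 42.29) overlapped Fosb (26.83 to 28.95). Egr2 was also the most variable member, with a highest library 6.16 times its lowest, followed by Nr4a1 (3.29), Egr1 (2.95) and Egr4 (2.91). Egr3 varied least, at 1.31 times, and Fosb (1.62), Jun (1.61), Npas4 (1.76), Junb (1.79) and Fos (2.08) lay between.

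**Figure D2:**
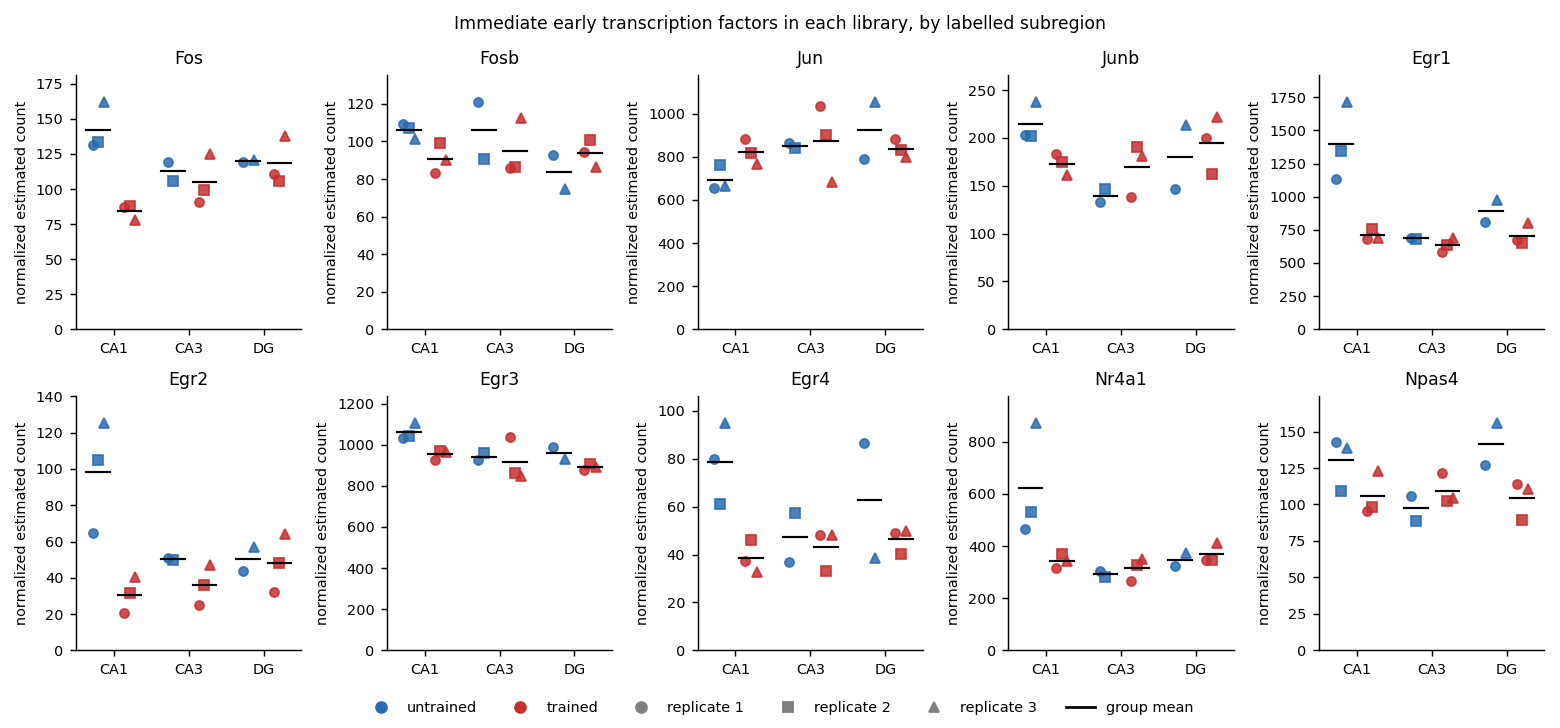
Normalized estimated count (vertical axes, from 0) of each member in each of the 16 libraries, by labelled subregion (horizontal axes). Points are libraries, colours training, marker shapes replicates and black lines group means; in CA1 the trained points of Fos, Egr1, Egr2, Egr4 and Nr4a1 lie below all untrained points, and those of Jun above.

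The question of the CA1 comparison was how gene expression after the retention test differed between mice with and without a place memory. Of the 10 members, 4 (Fos, Egr1, Egr2 and Egr4) were lower in trained than in untrained CA1 and none was higher, where 5.23% of 13588 genes were called and 1.7% were called lower (479 higher and 231 lower, or 420 and 319 with upper-quartile rescaling, and 552 and 1325 without the low-value filter). The median log2 fold change of the members was -0.52, against 0.00032 over all genes. At an unadjusted p under 0.05 there were 8 members, 7 of them lower, against 18.9% of all genes called and 7.96% lower. Every trained library lay below every untrained one for 8 members (11.1% of all genes) and above for Jun (12.9% of all genes), and only Npas4 overlapped.

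Among the AP-1 genes, Fos, the factor most used as a mark of recent activity, was 131.5, 133.5 and 162.2 in untrained CA1 and 87.35, 87.99 and 77.87 in trained CA1. The groups were well apart, with a mean of 142.4 ± 17.2 (SD, n = 3) against 84.4 ± 5.67 (SD, n = 3). On the log2 scale it fell by 0.74 ± 0.149 (SE), with a limma adjusted p of 0.00521. Fosb, its close relative, was 109.5, 107.2 and 101.5 in untrained and 83.33, 99.0 and 90.17 in trained CA1. The groups did not overlap but lay close, with a log2 fold change of -0.22 (limma adjusted p = 0.461). Junb, a partner of both, was 203.3, 201.8 and 237.7 in untrained CA1 and 183.0, 174.3 and 161.3 in trained CA1, with a log2 fold change of -0.30 (limma adjusted p = 0.152).

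Jun, the other AP-1 partner, was the only member with a positive fold change in CA1. It was 655.5, 760.6 and 666.3 in untrained and 884.1, 818.1 and 766.4 in trained CA1. The trained libraries were all higher, the lowest of them only just above the highest untrained one. Its log2 fold change of 0.25 (95% confidence interval 0.084 to 0.41) did not pass the test (limma adjusted p = 0.0725), but did without trained replicate 3 (0.0479) or without untrained replicate 2 (0.0372).

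In the Egr family, Egr1, a zinc finger factor tied to lasting synaptic plasticity, was 1134, 1344 and 1716 in untrained CA1 and 677.8, 759.2 and 687.0 in trained CA1. Untrained libraries were high and spread out, whereas trained ones were low and close together. The log2 difference was -0.96 ± 0.147 (SE), with a limma adjusted p of 0.0157, and the call was lost without trained replicate 1 (adjusted p = 0.0777), trained replicate 3 (0.108) or untrained replicate 2 (0.0749), with the fold change between -0.93 and -0.98.

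Egr2, best known for its part in myelination and also induced by neuronal activity, changed most of the 10. Its values were 64.58, 104.9 and 125.4 in untrained CA1 and 20.35, 31.64 and 40.34 in trained CA1. The trained libraries included the lowest value of the 16 and the untrained libraries held the 3 highest. It fell by 1.61 ± 0.270 (SE) on the log2 scale, with a limma adjusted p of 0.00169. Egr2 and Fos kept their call without each library in turn.

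Egr4, a further zinc finger gene of the family, was 79.89, 61.3 and 94.99 in untrained CA1 and 37.3, 46.04 and 32.68 in trained CA1. The groups did not overlap. Its log2 difference was -0.98 ± 0.218 (SE), with a limma adjusted p of 0.0108, and the call was lost without untrained replicate 1 (-0.96, adjusted p = 0.0672) or untrained replicate 3 (-0.84, 0.0566). Egr3, a family member also needed for muscle spindles, was 1034 to 1106 in untrained and 927.2 to 969.5 in trained CA1. Its libraries were also apart, but its log2 fold change was small at -0.15 (limma adjusted p = 0.185).

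Nr4a1, the nuclear receptor, was 467.0, 531.6 and 872.4 in untrained CA1 and 316.6, 370.3 and 341.6 in trained CA1. Untrained replicate 3 stood well above the rest. The log2 difference was -0.81 ± 0.260 (SE), with a limma adjusted p of 0.198, while without untrained replicate 3 it was -0.54 and passed the test (adjusted p = 0.00129). It also passed without robust moderation (0.0178) and with all libraries in one fit (0.0285). Npas4 was 143.0, 109.4 and 139.0 in untrained and 95.68, 98.03 and 123.2 in trained CA1, groups that overlapped, with a log2 fold change of -0.30 (limma adjusted p = 0.313).

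The CA1 markers moved with these members. Of the 6, 2 were lower in trained CA1 by limma, among them Fibcd1, which fell by 1.32 on the log2 scale (adjusted p = 0.0139), and the median of the list was -0.94. Of the 6 CA3 markers, 4 were higher (Grik4, Cpne4, Homer3 and Cdh24) and Coch was lower. Of the 6 dentate granule markers, Glis3 was higher and Lct lower. Astrocyte (Aqp4) and meningeal (Dcn) markers had 1 lower gene each there, a heat shock gene (Hspa1b) was higher, and no interneuron, oligodendrocyte, microglial, endothelial or choroid plexus marker was called. The summed choroid plexus markers were 1009 to 1176 in untrained CA1 and 312.1 and 308.0 in trained replicates 2 and 3, but 2400 in trained replicate 1, and their part in the result was not tested. The mean log2 value of the CA1 markers was 8.878 to 9.521 in untrained and 8.007 to 8.162 in trained CA1, so the marker score and training separated the same libraries. With that score as a covariate, a choice made after the marker levels were seen, limma called 0 of the 10 members, none at an unadjusted p under 0.05. Their log2 fold changes then ran from -0.62 to 0.50 with a median of -0.076, and 1.57% of all genes were called. The share of the training difference that goes with the amount of CA1 tissue cannot be told apart from the rest.

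**Figure D3:**
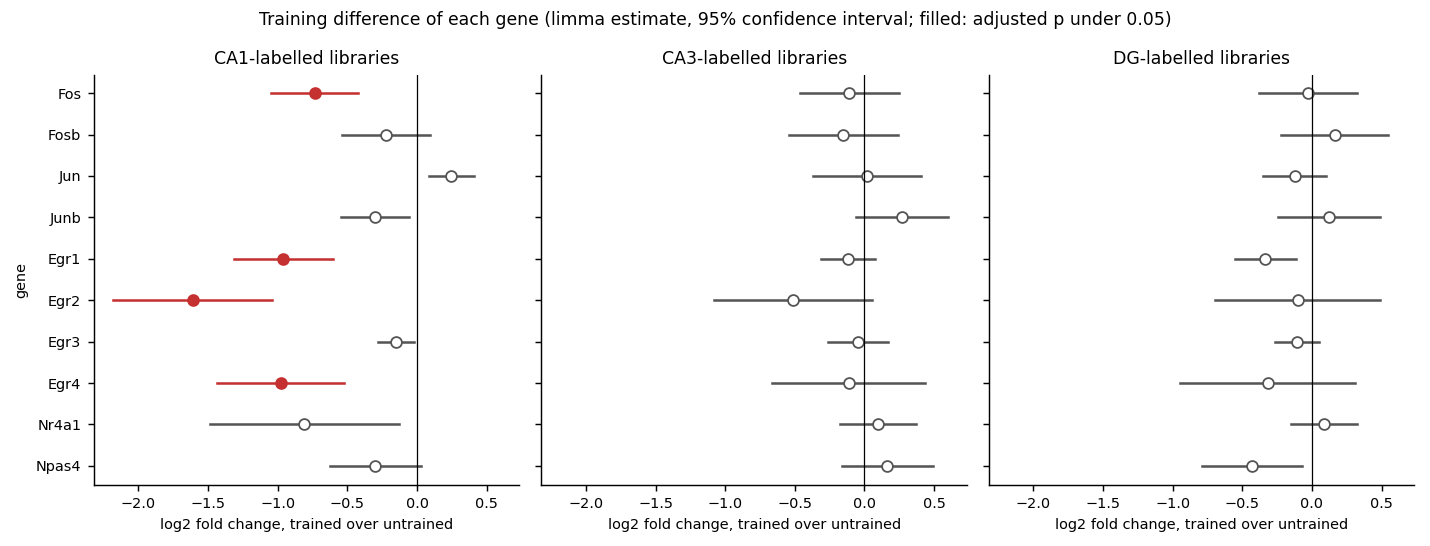
Log2 fold change of trained over untrained libraries (horizontal axes) for each member (vertical axis) in the libraries labelled CA1, CA3 and DG. Points are limma estimates, lines 95% confidence intervals, and filled red points have an adjusted p under 0.05; Fos, Egr1, Egr2 and Egr4 are filled in CA1 and no member is in CA3 or DG.

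In CA3 no member passed the test. Limma called 0 of 10, none at an unadjusted p under 0.05, where 0.852% of 13848 genes were called and 15.8% passed unadjusted, and the smallest adjusted p was 0.36, for Egr2. Egr2 was 50.97 and 49.86 in untrained CA3 and 24.81, 35.77 and 47.02 in trained CA3. It was the only member whose trained CA3 libraries all lay below the untrained ones (16.7% of all genes), with a log2 fold change of -0.51 (95% confidence interval -1.08 to 0.057).

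Egr1, called in CA1, was 687.1 and 683.7 in untrained CA3 and 582.0, 632.3 and 686.8 in trained CA3, with a log2 fold change of -0.12 (95% confidence interval -0.31 to 0.079). Fos was 119.4 and 105.7 in untrained against 90.96, 99.15 and 124.8 in trained CA3, groups that overlapped, with an interval from -0.46 to 0.25. For Egr4 the interval was -0.66 to 0.44. The CA1 estimates of Egr1, Fos and Egr4 lay outside these CA3 intervals. Those of Egr2, Junb, Nr4a1 and Npas4 also lay outside their CA3 intervals. Such a comparison leaves out the error of the CA1 estimates. The interaction test of CA1 against CA3 called no member (limma adjusted p = 0.16 for Egr1, 0.489 for Fos and 0.671 for Egr4). The members other than Egr1, Egr2, Fos and Egr4 had log2 fold changes between -0.15 (Fosb) and 0.27 (Junb) in CA3. Without untrained replicate 1, the library with both Xist and Ddx3y, 0 of 10 were called as well (0.124% of all genes were), but that fit has 1 untrained library, assumed to vary like the trained ones, and says little.

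In DG, limma again called 0 of 10 members, where 3.39% of 13935 genes were called, and 2 passed at an unadjusted p under 0.05 (19.5% of genes). Egr1 was 811.1 and 971.8 in untrained DG and 672.3, 649.3 and 799.8 in trained DG. The trained libraries all lay lower, the closest pair being nearly equal, with a log2 difference of -0.33 ± 0.102 (SE) and a limma adjusted p of 0.0852. Npas4 was 127.1 and 155.9 in untrained and 113.7, 89.42 and 110.7 in trained DG, again with no overlap, and the log2 difference was -0.43 ± 0.171 (SE), with a limma adjusted p of 0.174. Egr3 was the third member with all trained libraries lower, which was so for 18.2% of all genes.

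The other members of the DG set did not separate. Fos, at 119.2 and 120.7 in untrained and 110.8, 106.0 and 138.0 in trained DG, had a log2 fold change of -0.029 (95% confidence interval -0.38 to 0.32). Egr4 differed strongly between the 2 untrained libraries, at 86.76 and 38.52, and was 48.88, 40.16 and 49.88 in trained DG. With 2 untrained libraries, single libraries decided several values: Egr1 (-0.46, limma adjusted p = 0.0199) and Jun (-0.33, 0.0345) passed without untrained replicate 1 (4.56% of all genes did), and Egr4 (-0.88, 0.0296) passed without untrained replicate 3 (11.4% of all genes). Each of these fits has 1 untrained library, which is assumed to vary like the trained ones. Without trained replicate 3, 0 of 10 were called. In DG the untrained libraries, not the trained ones, were those with many genes at 0 (7567 and 8636), the reverse of CA1.

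Whether the training difference itself varied by subregion was tested as an interaction over the 6 groups. Between CA1 and DG, 0 of 10 members were called by limma (2.75% of 14673 genes were) and 4 passed at an unadjusted p under 0.05 (17.8% of genes). The training difference was lower in CA1 by 1.51 on the log2 scale for Egr2 (95% confidence interval -2.40 to -0.62, adjusted p = 0.0601), with estimates of -0.71 for Fos and -0.63 for Egr1 (both 0.0771) and -0.89 for Nr4a1 (0.111). Libraries of one animal share their number, and with the animal as a block 3 members were called (1.92% of genes): Nr4a1 (adjusted p = 0.00737), Egr1 (0.0119) and Egr2 (0.0205). Without a low-value filter 4 were called, these 3 and Fos, at 8.68% of genes. With the CA1 marker score as a covariate 0 were called, none at an unadjusted p under 0.05, and the median difference moved from -0.53 to -0.13.

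Between CA1 and CA3, limma called 0 of 10 members, where 0.0273% of genes were called, with 6 at an unadjusted p under 0.05 (6.71% of genes). The smallest adjusted p was 0.16, for Egr1 (-0.84, 95% confidence interval -1.23 to -0.46), and with the animal as a block Egr1 was called (-0.72, adjusted p = 0.0304). Between CA3 and DG, 0 of 10 were called (0.164% of genes were) and 1, Npas4, passed at an unadjusted p under 0.05, as did 11.7% of genes (0.59, limma adjusted p = 0.339). By the main test, a larger training difference in CA1 than elsewhere was therefore not shown for any member.

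**Figure D4:**
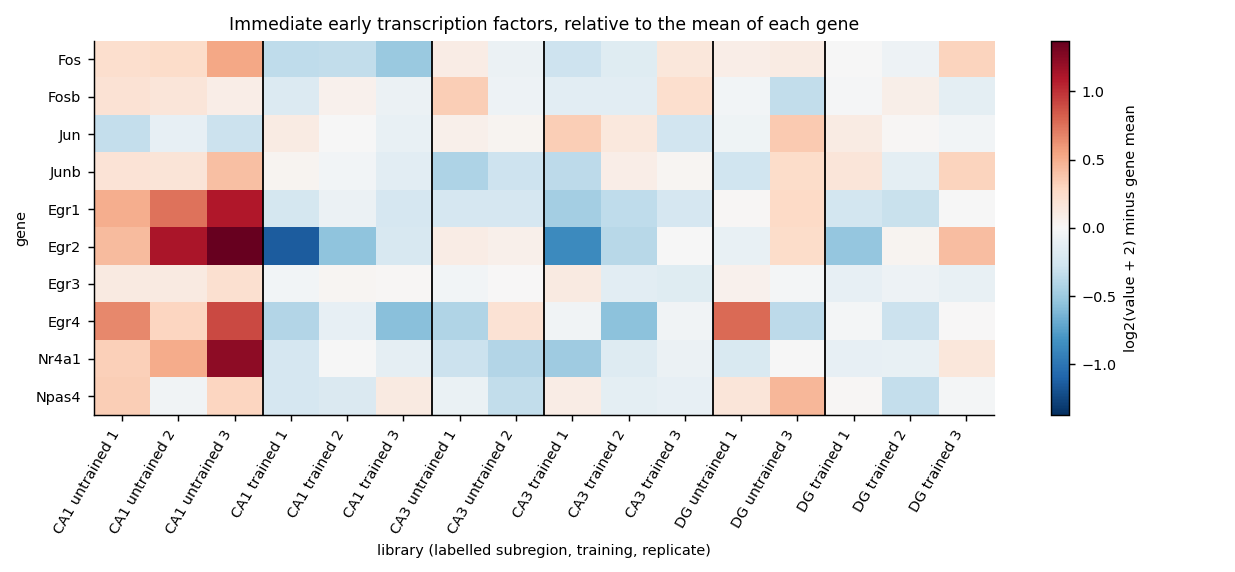
Log2(value + 2) of each member (rows) in each library (columns, ordered by labelled subregion, training and replicate) minus the mean of that member over the 16 libraries, on a colour scale from blue (below the mean) to red (above). The 3 untrained CA1 libraries at the left are the reddest for Egr1, Egr2 and Nr4a1.

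Seen over all 16 libraries, it was untrained CA1 that stood apart. The 3 untrained CA1 libraries lay above the other 13 for Egr1, Egr2 and Nr4a1, that is for 3 of the 10 members against 1.44% of 14673 genes, a count made after the values were seen. For Egr2 the margin was slight, with 64.58 in untrained CA1 replicate 1 against 64.13 in trained DG replicate 3. The trained CA1 values of Egr1 (677.8 to 759.2) lay within the range of CA3 and DG (582.0 to 971.8), and so did those of Nr4a1 (316.6 to 370.3, against 265.4 to 413.7). Those of Egr2 (20.35 to 40.34) lay only in part within its CA3 and DG range (24.81 to 64.13). Trained CA1 Fos (77.87 to 87.99), in contrast, lay below every CA3 and DG library (90.96 to 138.0). The CA1 markers had the same order, with 5 of 6 above the other 13 libraries in untrained CA1.

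With the trained and untrained groups weighted equally, the level of Egr1 was higher in CA1 than in CA3, with a log2 difference of 0.58 ± 0.0916 (SE) and a limma adjusted p of 0.00473. Most of this came from the untrained groups, with means of 1398 in CA1 and 685.4 in CA3. The trained means were 708.0 and 633.7. Egr1 was the 1 member called, where 0.988% of 14673 genes were called and 0.722% were higher. At an unadjusted p under 0.05, 4 members passed (10.2% of genes). Nr4a1 was 0.58 higher in CA1 (limma adjusted p = 0.0805), and was called with the animal as a block (0.49, 0.00307). The Egr1 call was lost without untrained replicate 2 (adjusted p = 0.0606) and with the CA1 marker score as a covariate (0.074, 0.974). Between CA1 and DG, limma called 0 of 10 members (4.05% of genes), with 4 at an unadjusted p under 0.05 (19.6% of genes). Egr1 was 0.32 higher in CA1 (adjusted p = 0.0608) and, with the animal as a block, Egr1 (0.34, 0.00386) and Nr4a1 (0.40, 0.0105) were called. Without the DG library of trained mouse 3, Egr1 was called too (0.37, 0.0418). Between CA3 and DG, 0 of 10 were called (0.00682% of genes), with 2, Egr1 (-0.26) and Junb (-0.27), at an unadjusted p under 0.05 (6.86% of genes).

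Over the 3 subregions together, which reuses the same libraries, 2 of 10 members were lower in trained mice by limma, where 10.3% of 14673 genes were called and 4.06% were lower. This fit had no term for the animal. Its 9 trained and 7 untrained libraries counted as independent, though each group came from 3 mice. Egr1 fell by 0.51 ± 0.129 (SE) and Egr2 by 0.81 ± 0.240 (SE) on the log2 scale, with limma adjusted p-values of 0.0251 and 0.0389. Fos (-0.33, 0.0575) and Egr4 (-0.51, 0.0638) came next, and 5 members passed at an unadjusted p under 0.05, against 25.5% of all genes. Markers also moved in this fit: of 6 CA3 markers 3 were higher and 1 lower, and 2 of 5 astrocyte markers were lower. A dentate granule and a meningeal marker were lower and an interneuron marker was higher. No CA1, oligodendrocyte, microglial, endothelial or choroid plexus marker was called.

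The count of called members in this comparison varied with the libraries used. It was 0 to 3 with each animal left out, being 0 without trained mouse 1 or 2 and without untrained mouse 1 or 2. In those 4 fits the log2 fold change was still -0.46 to -0.65 for Egr1 and -0.55 to -1.05 for Egr2. With the CA1 marker score as a covariate Egr1 stayed called (-0.30, limma adjusted p = 0.00673) and Egr2 did not (-0.44, 0.13). In the CA3 and DG libraries alone 0 members were called, with Egr1 at -0.22 (limma adjusted p = 0.0966) as the 1 member at an unadjusted p under 0.05. Without the CA3 library of untrained mouse 1, Egr1 (-0.56, adjusted p = 0.0306) and Egr4 (-0.63, 0.0297) were called and Egr2 was not (0.0665). Without the DG library of trained mouse 3, Egr1 (0.0212), Egr2 (0.0133) and Fos (0.0283) were called. A sex-linked score (log2 of Xist subtracted from the average of 4 genes of the Y chromosome) was also used as a covariate. With it, 0 members and 0.0% of all genes were called by limma. At an unadjusted p under 0.05 there were 0 members and 1702 of 14673 genes. The score followed training in nearly all libraries, so this fit could hardly separate the score from training.

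Among the genes around this pathway, the closest relatives of the members did not all follow them in CA1. Jund, the constitutive Jun protein, was 164.3, 177.6 and 179.6 in untrained CA1 and 269.3, 256.8 and 218.1 in trained CA1. It rose by 0.50 on the log2 scale (limma adjusted p = 0.0126, and between 0.0715 and 0.0756 without trained replicate 1, trained replicate 2 or untrained replicate 1, and 0.0598 in one fit of all libraries). It was the 1 of 6 tested AP-1 relatives (of 10 listed) called in CA1, where 5.23% of all genes were called. The more abundant relatives Fosl2 (0.059) and Jdp2 (0.10) did not pass.

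Nr4a2, a second nuclear receptor of the family, was 308.3, 294.5 and 334.0 in untrained and 254.6, 246.0 and 170.0 in trained CA1. It fell by 0.50 (limma adjusted p = 0.0376), a call lost in 5 of 6 leave-one-out fits (adjusted p up to 0.14), with the replicate block (-0.50, 0.0658) and without robust moderation (0.0591). Its log2 fold change was -0.32 without trained replicate 3 and -0.45 to -0.58 in the other 4 leave-one-out fits that lost the call, while the third receptor, Nr4a3, had a log2 fold change of 0.064 (0.765). The Egr corepressors Nab1 (0.054) and Nab2 (-0.15) and 5 Npas4-related genes, the partners Arnt (0.13) and Arnt2 (-0.18) among them, had no call in any training comparison.

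Of 28 inducing factors and kinases found in the files (of 30 listed), 1 was called in CA1, a share below the 5.23% of all genes. Crtc1, a CREB coactivator, rose by 0.33 (limma adjusted p = 0.000268). The abundant SRF coactivator Mkl2 (0.060, 0.589) did not pass there. In DG, where 3.39% of all genes were called, 4 were called: Map2k1 rose by 0.33 (0.0113), and Mef2c (-0.38, 0.00997), Crebbp (-0.27, 0.0347) and Mkl2 (-0.22, 0.0422) fell. Over the subregions together, where 10.3% of all genes were called, 3 rose and 3 fell, led by Map2k1 (0.22, 0.00304), Crtc1 (0.23, 0.00446), Mef2c (-0.31, 0.00547), Map2k2 (0.31, 0.00691) and Elk4 (-0.18, 0.0349). None was called in CA3.

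Of 27 other immediate early genes found in the files, 1 was called in CA1, where 5.23% of all genes were called. Trib1, a pseudokinase gene, fell by 0.79 there (limma adjusted p = 0.0157, and up to 0.0709 with one library left out). Per1 (-0.17, 0.272) and Fbxo33 (-0.0087, 0.976), the most abundant of that list, did not pass. The list had a median log2 fold change of -0.073 in CA1. Over the subregions together 10.3% of all genes were called. There Nfil3 (-0.38, 0.0115) and Dusp4 (-0.23, 0.0326) fell, as did the AP-1 relative Atf3 (-0.69, 0.0231), while Jund rose (0.43, 0.00424).

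Of 19 tested effector genes induced by activity, 2 were lower and 2 higher in CA1, where 5.23% of all genes were called. Homer1, a postsynaptic scaffold gene, was 1453, 1396 and 1542 in untrained CA1 and 917.6, 1060 and 940.2 in trained CA1. The trained libraries were all far below the untrained ones, and the gene fell by 0.59 (limma adjusted p = 3.17e-05). Plk2, a kinase of synaptic downscaling, fell by 0.44 (0.00223). Ptgs2, the inducible cyclooxygenase, rose by 0.60 (0.00206) and Nrn1, a secreted neurite growth factor, rose by 0.30 (0.00478, and 0.0544 without untrained replicate 1).

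Arc, whose regulatory region also drives the Cre of these mice, was 2081, 2772 and 4067 in untrained CA1 and 1510, 1894 and 1758 in trained CA1. The groups did not overlap, but the untrained values were widely spread and its log2 fold change of -0.74 did not pass (limma adjusted p = 0.291). In CA3 and DG it had log2 fold changes of -0.11 and -0.021. With the CA1 marker score as a covariate none of the called listed genes in CA1 (Jund, Nr4a2, Trib1, Crtc1, Homer1, Plk2, Ptgs2 and Nrn1) was called, with adjusted p-values from 0.193 to 0.997. The fold changes then differed in size: those of Jund (0.47), Crtc1 (0.36) and Nr4a2 (-0.39) stayed near the values without the score, Homer1 was at -0.32 and Trib1 at -0.27, and Ptgs2 (0.081), Nrn1 (0.015) and Plk2 (0.0032) were close to 0. The score and training separated the same CA1 libraries, so these estimates are poorly fixed and do not sort the genes. Elsewhere, Inhba (-0.79, 0.0324) fell and Sst (0.82, 0.0101), also an interneuron marker, rose in CA3 (0.852% of all genes were called). Scg2 (-0.35, 0.0165) fell in DG (3.39% of all genes). In CA3, 2 of 5 choroid plexus markers were lower and 1 CA3 marker was higher. In DG, 1 dentate granule and 1 endothelial marker were lower. Over the subregions together (10.3% of all genes) Inhba (-0.46, 0.00273) and Scg2 (-0.22, 0.00936) fell and Ptgs2 (0.38, 0.0135) rose.

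**Figure D5:**
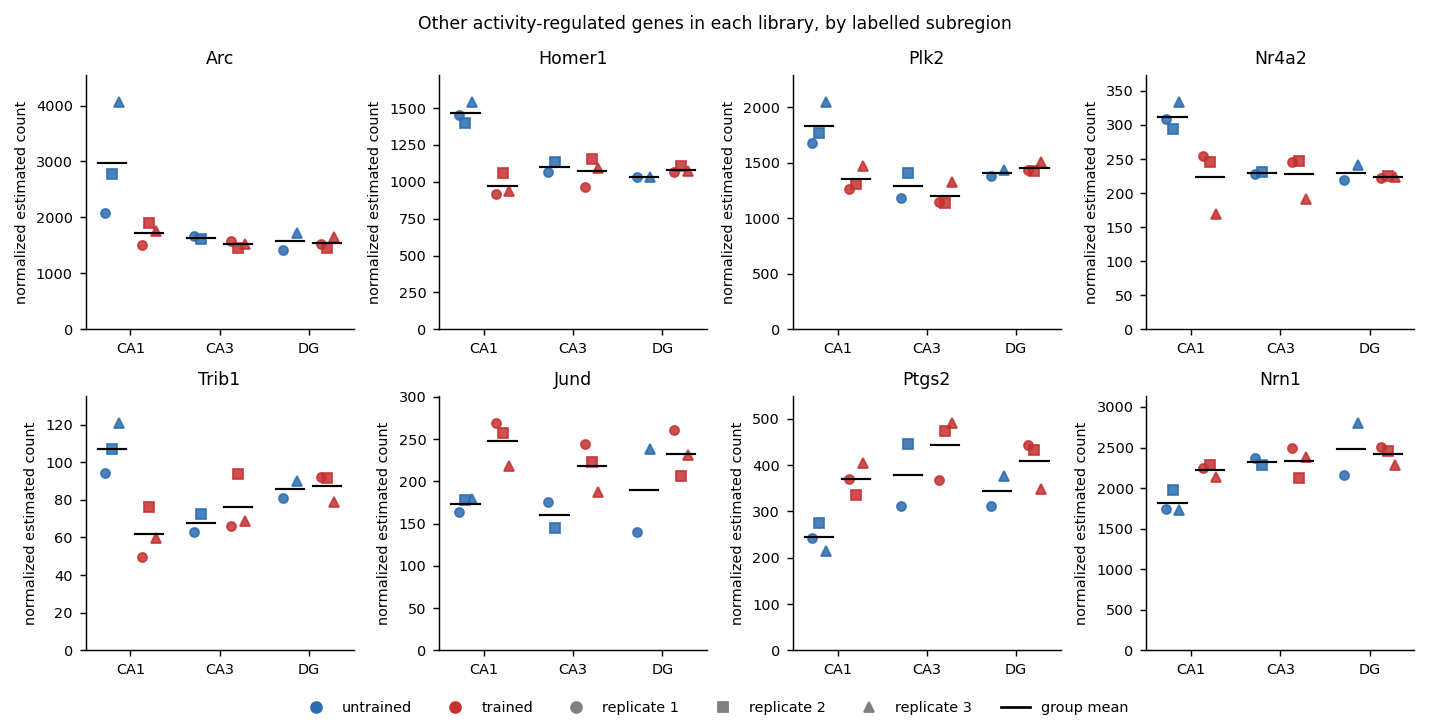
Normalized estimated count (vertical axes, from 0) of 8 activity-regulated genes that are not members, in each of the 16 libraries by labelled subregion (horizontal axes). Points are libraries, colours training, marker shapes replicates and black lines group means; untrained CA1 lies above all other libraries for Arc, Homer1, Plk2, Nr4a2 and Trib1.

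The members themselves did not vary alike. With the mean of each labelled subregion removed, the Pearson correlation over the 16 libraries of a member with the mean of the other 9 was 0.972 for Egr1, 0.934 for Fos, 0.885 for Nr4a1 and 0.828 for Egr2. It was 0.604 for Egr4, 0.511 for Egr3, 0.457 for Junb, 0.43 for Npas4 and 0.299 for Fosb, and negative for Jun (-0.566). These are descriptions over libraries that share animals and the training groups. Among 10757 other genes of mean value at least 50, those most like the mean of the members were Hunk (0.929), Matn2 (0.916), Homer2 (0.911), Arc (0.909) and Bhlhe40 (0.901). In CA1 the mean of Hunk, a kinase gene, was 443.7 ± 62.8 (SD, n = 3) in untrained and 271.1 ± 42.9 (SD, n = 3) in trained libraries. For Bhlhe40, an activity-regulated repressor, the means were 987.6 ± 52.7 and 648.2 ± 62.5 (SD, n = 3 each). These genes were picked for their likeness to the members, so these differences are a description.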

How the data were processed

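Bulk RNA-seq libraries of CA1, CA3 and DG were used, 9 from trained and 7 from untrained animals, grouped by their titles. The deposited signal is an estimated count per gene that the authors had normalized between libraries by a method not given in the sources used here. The submitters' processing notes name bcl2fastq 2.20, FastQC, Trim Galore, STAR, DESeq2 and GRCm38, and the paper's methods add Salmon and give names of both mouse builds. The protocol names rRNA depletion and random priming, while the labels call the molecule polyA RNA. Values are not whole numbers and sum to 7607326 to 7984931 per library, so the depth is unknown and no counting interval is given.

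Each comparison was fitted over all genes by limma 3.58.1 (R 4.3.3), after log2(value + 2), using a trended prior variance, robust moderation and Benjamini-Hochberg adjustment. A call is an adjusted p-value under 0.05, and tests were two-sided. Genes needed a value of at least 10 in at least 3 libraries for CA1 and at least 2 otherwise. Fold changes on this scale understate those of low genes. The combined fit had subregion as a term, and interactions and subregion contrasts came from 6 group means. The fit was tested on simulated data. Gene positions and lengths came from the GENCODE annotation of GRCm38, and promoters from RefSeq.

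Members and gene lists were chosen with earlier results of these data known. All members are named, with the called genes of each list (at most 5 per training comparison), its 2 most abundant genes, and the 5 genes most like the members. Some genes that this rule names are not reported here. Mrtfa, Mrtfb and Ccn1 are not listed under these symbols but under the older ones Mkl1, Mkl2 and Cyr61. Trained and untrained libraries of one number did not deviate together (correlations of -0.1796 to 0.1191), so that number pairs nothing across training. Libraries of one animal carry its number, with correlations of -0.1078 to 0.09209. Alternatives were 2 rescalings, other filters and a pseudocount of 0.5, no robust moderation, one fit of all libraries, replicate blocks, a sex-linked covariate, the split by genes listed at 0, and single replicates left out. The CA1 marker covariate and the subsets without doubted libraries were chosen after seeing the data.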

Additional observations from a re-analysis of the deposited data

Results flagged for a closer look

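Of the 20 activity-induced effector genes, 2 had a training difference that differed between CA1 and DG by the interaction test, where 2.75% of all genes did. For Homer1 it was lower in CA1 than in DG by a log2 difference of -0.657 (limma adjusted p = 0.00293), with trained below untrained libraries in 3 of 3 in CA1 and above both in DG. For Plk2 the log2 difference was -0.486 (limma adjusted p = 0.0332), which missed the threshold without trained replicate 1 (0.101), trained replicate 2 (0.125), untrained replicate 1 (0.0742), untrained replicate 3 (0.0851) or the DG library of trained mouse 3 (also 0.0851). With the CA1 marker score as a covariate neither was called (0.346 for Homer1 and 0.625 for Plk2). The same test was passed by the CA3 marker Cpne4 (0.57, limma adjusted p = 0.0164), by 1 of the 6 CA1 markers, and by Bhlhe40 (-0.50, 0.0272), which was picked for its likeness to the members. The part of the CA1 tissue content in these values was not tested further.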

How the results depend on the processing

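The 4 calls in CA1 numbered 3 to 4 with one library left out, and 0 with the CA1 marker score as a covariate, which also turned the fold change of Plk2 to 0.0032. In CA3 no alternative that was run gave a call. In DG the count of 0 became 0 to 2 with one library left out, with calls in the fits that kept 1 untrained library. Over the subregions together the count of 2 became 1 (Egr1) with the CA1 marker score, 0 with the sex-linked score, 0 in the CA3 and DG libraries alone, and 0 to 3 with one animal left out.

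With the replicate block (animal), the interaction of CA1 with CA3 gave 1 call and that of CA1 with DG gave 3. The latter gave 4 without a low-value filter and 0 to 2 with one animal left out. Subregion contrasts gave, for CA1 against DG, 1 call without robust moderation, 2 with the replicate block, 1 without the DG library of trained mouse 3 and 0 to 1 with one animal left out. For CA1 against CA3 they gave 0 with the CA1 marker score, 2 without robust moderation, 2 with the replicate block and 0 to 2 with one animal left out. In the training comparisons the replicate block changed no call of a member. There it joined trained and untrained libraries of one number, which pairs nothing across training. It therefore does not account for libraries that share an animal. The mean of Egr1 in untrained CA3 was 681.7 under median-of-ratios rescaling, outside the narrow spread of its 2 libraries, and the other 59 of 60 group means stayed within 1 SD. Among gene-level values, 1526 kept direction and side of the threshold, 99 turned direction without a call in either fit (Nr4a1, Npas4, Jun, Junb and Egr3 in CA1 with the CA1 marker score among them), 31 newly passed and 55 no longer passed. The causes of these changes were not tested.

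Counts over all genes moved more. In CA1, 710 genes became 213 with the CA1 marker score, 1877 without a low-value filter (which moved the median of all genes to -0.13) and 329 to 865 with one library left out. In CA3, 118 became 413 in one fit of all libraries, 56 without robust moderation, 1160 with the replicate block and 7 to 680 with one library left out. In DG, 473 became 308 without robust moderation and 28 to 1583 with one library left out. Over the subregions together, 1517 became 750 in CA3 and DG alone, 1000 without the CA3 library of untrained mouse 1, 0 with the sex-linked score and 456 to 1873 with one animal left out. The CA1 to DG interaction went from 404 to 2039 without a filter, 200 when every library had to reach 10, 0 with the CA1 marker score and 24 to 355 with one animal left out. The CA1 to CA3 interaction went from 4 to 0 with the CA1 marker score, 7 with upper-quartile rescaling and 0 to 69 with one animal left out, and that of CA3 with DG from 24 to 5 with the replicate block and 0 to 72 with one animal left out. Subregion counts went from 145 to 6 (CA1 against CA3) and from 594 to 68 (CA1 against DG) with the CA1 marker score.

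Groups of 2 or 3 libraries and sex-linked transcripts that followed training limit each comparison. So do the labels, which the dentate markers did not bear out and the CA1 and CA3 markers bore out only in part.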
